A study of Mus musculus with 6 samples.

Results

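Surface molecules through which macrophages instruct lymphocytes were followed in mouse peritoneal macrophages exposed to ligands of Toll-like receptors. The set held the B7 costimulatory ligand genes Cd80, Cd86 and Icosl, the PD-1 ligand genes Cd274 and Pdcd1lg2, the SLAM receptor genes Slamf1, Slamf7 and Slamf8, and the activation-linked surface genes Cd69 and Cd38. Genes were taken from the array probes whose platform annotation names a single gene, with the mean of the probes where a gene had more than 1. Of the 10 genes in the set, 9 were measured by 10 such probes, out of 19935 genes in all, and Cd38 was not analysed here. Cd80 had 2 probes and each other gene had 1.

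The cells were peritoneal macrophages of the C57BL/6 strain, cultured in DMEM with 10% FBS. They formed 3 groups of 2 arrays: poly I:C at 2 ug/mL for 24 h, PAM at 1 ug/mL for 24 h, and untreated cells whose culture time the labels do not give. Poly I:C is a synthetic double-stranded RNA sensed by TLR3, and PAM is a lipopeptide sensed by TLR2 that the descriptions of its 2 samples spell differently (PAMCSK3 and PAMCSK4). The series set out to find genes moved in opposite directions by the ligands. The labels do not state the origin of the samples within a group (animal, culture or repeat preparation), so the spread behind the p-values may be purely technical.

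B7 proteins on antigen-presenting cells bind receptors of the CD28 family on T cells. CD80 and CD86 engage the activating receptor CD28 and the inhibitory receptor CTLA-4, ICOS ligand engages ICOS, and the PD-1 ligands engage the inhibitory receptor PD-1. SLAM receptors are immunoglobulin-type proteins on blood cells, many of which bind their own kind on a neighbouring cell and signal through small SH2 adaptors such as SAP and EAT-2. CD69 is a C-type lectin that appears early on activated leukocytes, and CD38 is a surface enzyme that consumes NAD.

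Values are on a log scale taken as log2, with the median of the 6 arrays set to 0 for each probe by the authors, so they compare arrays for 1 gene and never a gene with another. Where a group lies between the other groups, this centring puts it near 0. Differences are given as log2 difference ± SE (n = 2 arrays per group) with the Benjamini-Hochberg adjusted p over all genes from limma, and a gene was called at an adjusted p under 0.05. The number of arrays limits the precision, and in these bulk samples a larger share of cells carrying a transcript and more transcript per cell cannot be told apart. Among genes chosen to check the stimulation, Ifit1, an interferon-stimulated gene, rose by 6.12 with poly I:C and by 2.84 with PAM. Tnf, the tumour necrosis factor gene, rose by 2.20 with poly I:C and by 4.43 with PAM (largest adjusted p of Ifit1 and Tnf = 1.46e-06, limma). The other checks were Cxcl10, which rose by 7.29 with poly I:C and by 2.835 with PAM, and Il1b, which rose by 0.32 and by 6.97 (largest adjusted p of Cxcl10 and Il1b = 0.0101, limma). Under quantile normalization Ifit1 rose by 4.43 and 2.07. Quantile normalization was run on the values already centred per probe. It therefore made the distribution of deviations from the probe medians equal between arrays, not that of array intensities. All 8 macrophage marker genes lay at a log2 level of 8 or above on all arrays before centring, a class of 30% of genes that the rounding steps of the deposited numbers still show. Of the set, Cd274, Slamf7 and Slamf8 were in that class, whereas Cd80, Cd86, Icosl, Pdcd1lg2, Slamf1 and Cd69 lay below 8 on at least 1 array.

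With poly I:C, 8 of the 9 measured genes were higher than in untreated cells and none was lower, beside 12.1% of all genes called higher and 18.2% called lower (30.4% in all). By limma 0 of the 9 were lower also at an unadjusted p under 0.05, and 9 were higher. The shares of all genes in this paragraph are for the adjusted p, and none was taken at the unadjusted cut. With PAM, 6 of the 9 were higher, beside 11% of all genes, and 0 were lower by limma, at an adjusted or an unadjusted p, beside 14% of all genes called lower (25% in all). Between the ligands, 5 genes were higher under poly I:C (12.9% of all genes) and 2 were lower (15.8% of all genes, with 28.7% called in either direction). The median difference of the 9 genes was 1.02 with poly I:C and 0.50 with PAM, where the medians over all genes were 0.01 and -0.00145. Changes of at least 2-fold upward were called for 5 of the 9 genes with poly I:C, 2.77% of all genes, for 3 with PAM, 2.27% of all genes, and for 3 with poly I:C over PAM, 2.59% of all genes. The poly I:C and PAM differences share the untreated arrays. The genes were chosen with earlier results of these data known, so the counts and medians describe the set and are no test of it.

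**Figure D1:**
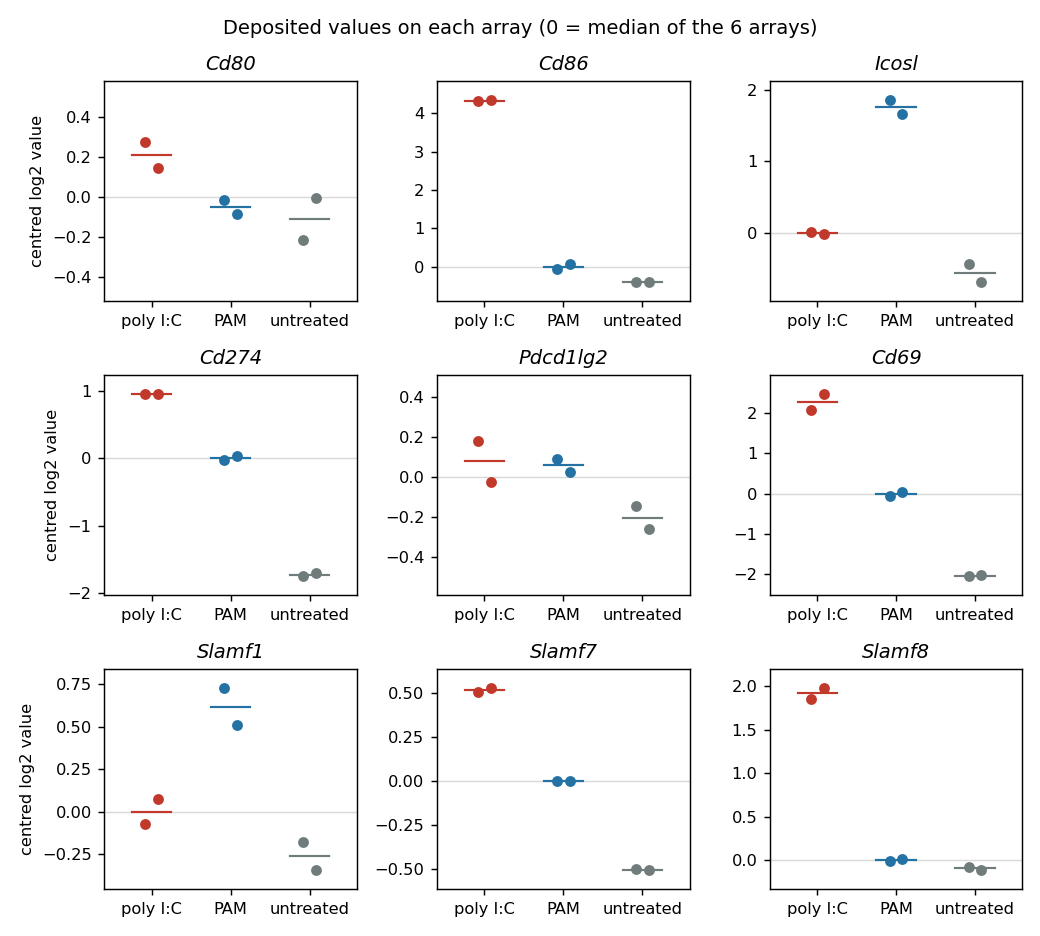
Deposited centred log2 values of the 9 measured genes on each array, for poly I:C, PAM and untreated cells. Points are arrays, lines are means of 2 arrays, and each panel has its own vertical scale. Cd86 stands above 4 on the poly I:C arrays alone, Icosl is highest on the PAM arrays, and the Pdcd1lg2 points of the ligands overlap.

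Among the B7 ligand genes, Cd86 followed poly I:C, Icosl followed PAM, and Cd80 moved little. Cd86 had values of 4.32 and 4.35 on the poly I:C arrays, -0.06 and 0.06 on the PAM arrays, and -0.41 and -0.40 on the untreated arrays. The 3 groups did not overlap, and the gap between poly I:C and the rest was far wider than that between PAM and untreated cells. Cd86 was 26.7-fold higher with poly I:C than in untreated cells (4.74 ± 0.07, adjusted p = 9.6e-10, limma) and 1.33-fold higher with PAM (0.41 ± 0.07, adjusted p = 0.00202, limma). The direct contrast of poly I:C with PAM gave 4.33 ± 0.07 for Cd86 (adjusted p = 1.64e-09, limma). Under quantile normalization of the centred values these Cd86 differences were 13.1-fold for poly I:C against untreated cells (3.71) and 9.73-fold for poly I:C against PAM (3.28). By size of increase Cd86 ranked 33 with poly I:C and 1296 with PAM among the 19935 genes.

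Icosl, the gene of the ICOS ligand, showed the other order. Its values were 0.014 and -0.014 with poly I:C, 1.85 and 1.67 with PAM, and -0.42 and -0.68 in untreated cells. PAM arrays were the highest, poly I:C arrays were in the middle, and no groups overlapped. Icosl rose by 0.55 ± 0.10 with poly I:C, which is 1.47-fold (adjusted p = 0.00221, limma), and by 2.31 ± 0.10 with PAM, which is 4.96-fold (adjusted p = 2.96e-07, limma). Set against PAM, poly I:C gave 3.39-fold less Icosl (-1.76 ± 0.10, adjusted p = 1.29e-06, limma).

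Cd80, the partner of Cd86 at CD28 and CTLA-4, had means of its 2 probes of 0.27 and 0.15 with poly I:C, -0.02 and -0.09 with PAM, and -0.21 and -0.0034 in untreated cells. The poly I:C arrays were the highest, while the PAM arrays lay within the range of the untreated ones. Cd80 was 1.25-fold higher with poly I:C than in untreated cells (0.32 ± 0.09, adjusted p = 0.0217, limma), and this call ended without poly I:C replicate 1 (0.25, adjusted p = 0.153, limma) and without untreated replicate 1 (0.21, adjusted p = 0.0948, limma). With PAM the Cd80 difference was 0.06 with a 95% interval from -0.14 to 0.26 (adjusted p = 0.735, limma). Taken alone, the probe that carries the RefSeq transcript in the annotation was 0.38 ± 0.10 higher with poly I:C than in untreated cells (adjusted p = 0.019, limma), and the other probe differed by 0.25 ± 0.10 without passing (adjusted p = 0.0904, limma). The probes also parted between the ligands: the RefSeq probe was 0.47 ± 0.10 higher under poly I:C than under PAM (adjusted p = 0.00746, limma), and the other differed by 0.05 ± 0.10 (adjusted p = 0.784, limma). The gene mean differed by 0.26 there (adjusted p = 0.054, limma).

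**Figure D2:**
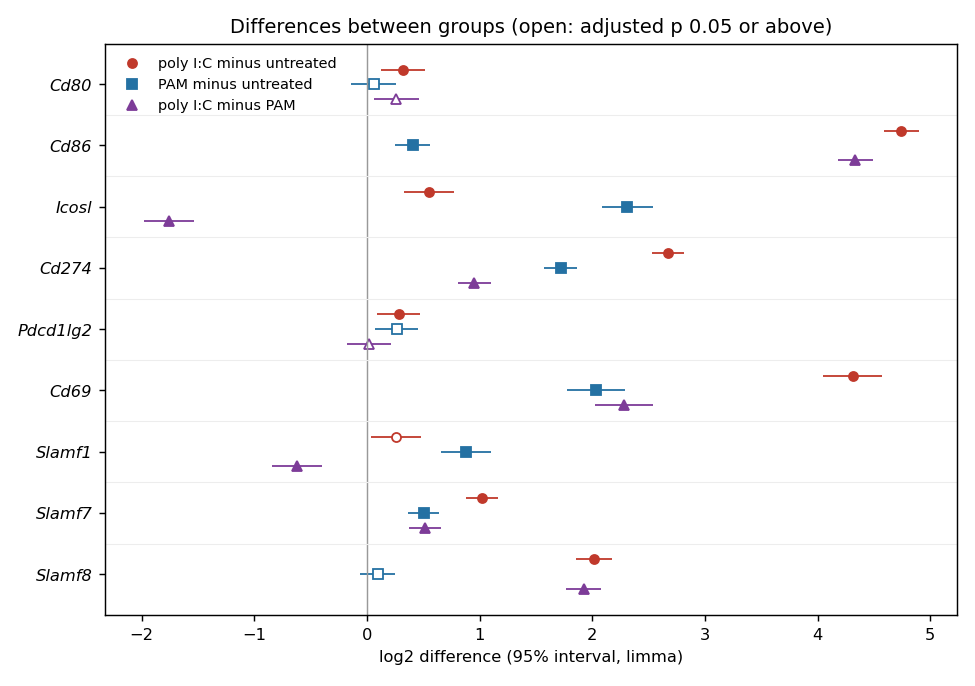
Log2 differences of the 9 measured genes for poly I:C minus untreated (circles), PAM minus untreated (squares) and poly I:C minus PAM (triangles), with 95% intervals from limma. Open symbols did not pass an adjusted p of 0.05. Icosl and Slamf1 are the genes whose poly I:C minus PAM difference lies below 0, at -1.76 and -0.62.

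The PD-1 ligand genes are adjacent on mouse chromosome 19 in the RefSeq annotation (GRCm38.p6), and they differed in size of change. Cd274, which encodes PD-L1, had values of 0.950854 and 0.951113 with poly I:C, -0.03 and 0.03 with PAM, and -1.74 and -1.70 in untreated cells. The groups stood apart with less than 0.1 between the arrays of each. Cd274 rose 6.37-fold with poly I:C (2.67 ± 0.06, adjusted p = 7.24e-09, limma) and 3.29-fold with PAM (1.72 ± 0.06, adjusted p = 1.37e-07, limma). Poly I:C exceeded PAM 1.93-fold (0.95 ± 0.06, adjusted p = 4.54e-06, limma).

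Pdcd1lg2, which encodes PD-L2, had values of 0.18 and -0.03 with poly I:C, 0.09 and 0.03 with PAM, and -0.15 and -0.26 in untreated cells. Arrays of the ligands overlapped, and all 4 lay above the untreated arrays. Pdcd1lg2 was 1.22-fold higher with poly I:C (0.28 ± 0.08, adjusted p = 0.0338, limma) and differed by 0.26 ± 0.08 with PAM (adjusted p = 0.0536, limma). The poly I:C call ended without poly I:C replicate 1 (0.18, adjusted p = 0.226, limma), without untreated replicate 2 (0.22, adjusted p = 0.139, limma) and without either PAM array (0.28, adjusted p = 0.0523 each, limma). Between the ligands the difference was 0.02 with a 95% interval from -0.17 to 0.21.

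The SLAM receptor genes also split between the ligands, with Slamf7 and Slamf8 higher under poly I:C than under PAM and Slamf1 lower. Slamf8, a receptor of macrophages, had values of 1.86 and 1.98 with poly I:C, -0.0093 and 0.0093 with PAM, and -0.08 and -0.11 in untreated cells. The poly I:C arrays stood apart, and PAM and untreated arrays lay within 0.12 of one another. Slamf8 was 4.04-fold higher with poly I:C than in untreated cells (2.02 ± 0.07, adjusted p = 5.61e-08, limma) and 3.79-fold higher than with PAM (1.92 ± 0.07, adjusted p = 8.38e-08, limma). With PAM it differed from untreated cells by 0.09, with a 95% interval from -0.06 to 0.25 (adjusted p = 0.421, limma).

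Slamf7, which encodes CRACC, a self-binding receptor of NK cells and macrophages, had values of 0.50 and 0.53 with poly I:C, -0.000377 and 0.000377 with PAM, and -0.49997 and -0.50 in untreated cells. The groups formed 3 evenly spaced steps with little spread. Slamf7 rose 2.03-fold with poly I:C (1.02 ± 0.06, adjusted p = 2.49e-06, limma) and 1.42-fold with PAM (0.50 ± 0.06, adjusted p = 0.000299, limma). Poly I:C exceeded PAM by 1.43-fold (0.52 ± 0.06, adjusted p = 0.000196, limma).

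Slamf1, the founding SLAM receptor, which also binds bacterial outer membrane proteins on phagocytes, had values of -0.07 and 0.07 with poly I:C, 0.73 and 0.51 with PAM, and -0.18 and -0.34 in untreated cells. PAM arrays were the highest and no groups overlapped. Slamf1 rose 1.84-fold with PAM (0.88 ± 0.10, adjusted p = 0.000146, limma), and was 1.54-fold lower under poly I:C than under PAM (-0.62 ± 0.10, adjusted p = 0.00108, limma). With poly I:C it differed from untreated cells by 0.26 ± 0.10 (adjusted p = 0.0781, limma), and the difference was called without untreated replicate 1 (0.34, adjusted p = 0.0361, limma).

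Cd69 rose with both ligands and most with poly I:C. Its values were 2.08 and 2.47 with poly I:C, -0.05 and 0.05 with PAM, and -2.04 and -2.02 in untreated cells. The groups were far apart, and the poly I:C arrays differed from each other by 0.39, the widest gap within a group for any measured gene of the set. Cd69 rose 19.9-fold with poly I:C (4.31 ± 0.11, adjusted p = 1.23e-08, limma) and 4.09-fold with PAM (2.03 ± 0.11, adjusted p = 1.73e-06, limma). The poly I:C level exceeded that of PAM by 4.85-fold (2.28 ± 0.11, adjusted p = 6.46e-07, limma). Under quantile normalization Cd69 was 9.47-fold higher with poly I:C than in untreated cells (3.24) and 3.06-fold higher than under PAM (1.61).

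Levels by group therefore ran in 3 orders. Poly I:C stood above PAM and PAM above untreated cells, with each step called, for Cd86, Cd274, Slamf7 and Cd69. For Slamf8 poly I:C stood above the rest, and the step between PAM and untreated cells, whose arrays did not overlap, was not called. For Icosl PAM stood above poly I:C and poly I:C above untreated cells, with each step called, and for Slamf1 PAM stood highest while the step between poly I:C and untreated cells was not called. Cd80 and Pdcd1lg2 had steps of at most 0.32, and the steps between PAM and untreated cells were not called for either. No measured gene of the set showed the opposite movement that the series looked for.

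Promoter sequences of the set were examined as a description. Cd86 and Cd69, the genes of the set with the largest differences between poly I:C and untreated cells, had no promoter entry and were not searched. RefSeq promoters of build GRCm38.p6, from 250 bases before to 50 bases after the annotated start, were at hand for 8 of the 10 genes: Cd80, Cd274, Pdcd1lg2, Icosl, Slamf1, Slamf7, Slamf8 and Cd38. Both strands were searched for the interferon-stimulated response element as GAAA, any 2 bases and GAAA, an NF-kB site as GGGA, any 4 bases and CC, and the gamma-activated site as TTCNNNGAA. The first was present in 1 of the 8, that of Slamf8, and in 3.44% of 32851 promoters. The NF-kB letters were present in 4, those of Cd80, Icosl, Pdcd1lg2 and Slamf8, and in 20.7% of all promoters. The gamma-activated letters were in 0 of the 8 and in 8.3% of all promoters. The Slamf8, Icosl and Cd274 windows are shown as those of a gene called with poly I:C and not with PAM, a gene higher with PAM, and a gene raised by both ligands, in the gene's orientation with matches in capitals.
Slamf8 (chr1:172590519-172590818, minus strand): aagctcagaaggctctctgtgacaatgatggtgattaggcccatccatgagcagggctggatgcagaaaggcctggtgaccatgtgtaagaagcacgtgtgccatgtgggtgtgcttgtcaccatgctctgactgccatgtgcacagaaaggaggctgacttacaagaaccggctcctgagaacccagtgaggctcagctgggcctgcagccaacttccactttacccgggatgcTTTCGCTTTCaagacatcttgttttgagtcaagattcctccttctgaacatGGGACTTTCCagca
Icosl (chr10:78069118-78069417, plus strand): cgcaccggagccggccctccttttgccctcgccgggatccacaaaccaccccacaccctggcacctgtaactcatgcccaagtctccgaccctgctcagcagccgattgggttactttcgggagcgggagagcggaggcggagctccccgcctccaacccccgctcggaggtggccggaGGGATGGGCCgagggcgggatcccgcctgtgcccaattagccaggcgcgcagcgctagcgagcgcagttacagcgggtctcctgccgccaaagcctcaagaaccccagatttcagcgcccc
Cd274 (chr19:29367188-29367487, plus strand): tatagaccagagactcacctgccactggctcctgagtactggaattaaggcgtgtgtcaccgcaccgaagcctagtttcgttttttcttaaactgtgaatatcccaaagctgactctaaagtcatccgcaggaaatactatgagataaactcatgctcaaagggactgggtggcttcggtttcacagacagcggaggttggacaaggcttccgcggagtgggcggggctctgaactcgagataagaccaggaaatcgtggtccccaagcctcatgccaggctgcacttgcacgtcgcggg
In Slamf8 the response element lay on the reverse strand with its first base 15 bases before the start, and the NF-kB letters GGGACTTTCC began 36 bases after it, with no overlap. In Icosl the NF-kB letters GGGATGGGCC began 71 bases before the start, and in the Cd274 window none of the 3 motifs was found. A match is a description of letters, and binding of a factor was not measured.

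Relatives of these genes were examined from a list of 12 genes. It held other B7 and CD28 family genes and Tnfrsf14, a gene of the TNF receptor superfamily. With poly I:C 2 of the 12 rose and 3 fell, and with PAM 1 rose and 2 fell, with medians of 0.11 and 0.0025. Of all genes, 12.1% were called higher and 18.2% lower with poly I:C, and 11% and 14% with PAM. Vsir, which encodes the inhibitory B7-like protein VISTA, fell with both ligands. It had values of -0.11 and -0.40 with poly I:C, -0.05 and 0.05 with PAM, and 2.29 and 2.45 in untreated cells, a difference of -2.63 ± 0.10 with poly I:C and -2.37 ± 0.10 with PAM (adjusted p = 1.41e-07 and 3.73e-07, limma). Cd28, the receptor of CD80 and CD86, differed by -1.69 ± 0.08 with poly I:C and -1.97 ± 0.08 with PAM (adjusted p = 4.44e-07 and 2.2e-07, limma), and its probe lay below 8 on at least 1 array. Under quantile normalization Vsir differed by -3.85 with poly I:C and -3.64 with PAM, and Cd28 by -2.64 and -2.97. Tnfrsf14, which encodes HVEM, the ligand of the inhibitory receptor BTLA, rose by 2.04 ± 0.08 with poly I:C and by 0.92 ± 0.08 with PAM (adjusted p = 9.37e-08 and 2.15e-05, limma). Pdcd1, the gene of PD-1 itself, rose by 0.43 ± 0.07 with poly I:C (adjusted p = 0.00172, limma) and differed by 0.11 with PAM (adjusted p = 0.362, limma). Like Cd28, Tnfrsf14 and Pdcd1 lay below 8 on at least 1 array.

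**Figure D3:**
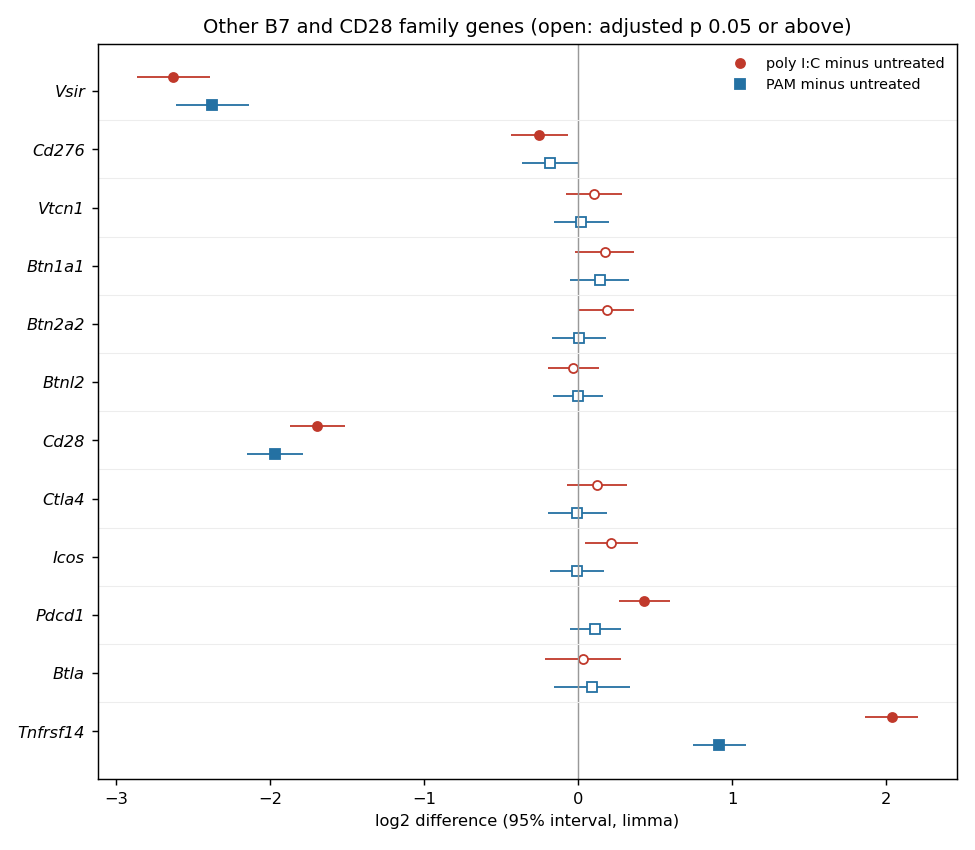
Log2 differences of 12 listed genes, other B7 and CD28 family genes and Tnfrsf14 of the TNF receptor superfamily. They are given for poly I:C minus untreated (circles) and PAM minus untreated (squares), with 95% intervals from limma, and share the untreated arrays. Open symbols did not pass an adjusted p of 0.05. Vsir and Cd28 lie far below 0 with both ligands, and Tnfrsf14 above it.

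The SLAM genes form a cluster on mouse chromosome 1 in the RefSeq order Cd244a, Ly9, Slamf7, Cd48, Slamf1, Cd84 and Slamf6, with Slamf9 and Slamf8 further along. Of 9 other SLAM receptor and adaptor genes measured, 3 rose and 3 fell with poly I:C, and 2 rose and 5 fell with PAM, with medians of -0.01 and -0.27. Beside them, 12.1% of all genes were called higher and 18.2% lower with poly I:C, and 11% and 14% with PAM. Slamf6, a self-binding SLAM receptor gene, had values of 0.03 and -0.03 with poly I:C, 1.25 and 1.30 with PAM, and -2.38 and -2.32 in untreated cells. It rose by 2.35 ± 0.07 with poly I:C and by 3.63 ± 0.07 with PAM (adjusted p = 1.69e-08 and 3.07e-09, limma). Slamf9 had values of 2.73 and 2.65 with poly I:C, -0.29 and -0.33 with PAM, and 0.05 and -0.05 in untreated cells. It rose by 2.69 ± 0.07 with poly I:C (adjusted p = 1.12e-08, limma) and fell by 0.31 on the log2 scale with PAM (adjusted p = 0.0101, limma), the opposite movement named in the design of the series. The call with PAM ended without PAM replicate 2 (-0.29, adjusted p = 0.0748, limma), and under quantile normalization the difference with poly I:C was 1.94.

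Smaller changes in the cluster lay on both sides of 0. Ly9, a self-binding receptor gene, rose by 0.77 ± 0.08 with poly I:C and by 0.33 with PAM, while Cd48, whose product binds CD244, fell by 0.60 and by 0.25 on the log2 scale, and Cd84 fell by 0.27 with poly I:C and by 0.68 with PAM (largest adjusted p = 0.0246, limma). The calls of Ly9 and Cd48 with PAM ended without either PAM array or untreated replicate 2 (adjusted p from 0.0601 to 0.172, limma), and that of Cd84 with poly I:C ended without poly I:C replicate 2 (-0.21, adjusted p = 0.132, limma) or untreated replicate 2 (-0.26, adjusted p = 0.0599, limma). Sh2d1b1, the gene of the adaptor EAT-2, had values of 0.02 and -0.02 with poly I:C, -1.76 and -1.95 with PAM, and 0.43 and 0.73 in untreated cells. It differed by -0.58 ± 0.11 with poly I:C and by -2.43 ± 0.11 with PAM (adjusted p = 0.00265 and 3.59e-07, limma). Bst1, an ADP-ribosyl cyclase gene next to Cd38 on chromosome 5, rose by 0.55 ± 0.07 with poly I:C and by 2.00 ± 0.07 with PAM (adjusted p = 0.000306 and 9.42e-08, limma).

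**Figure D4:**
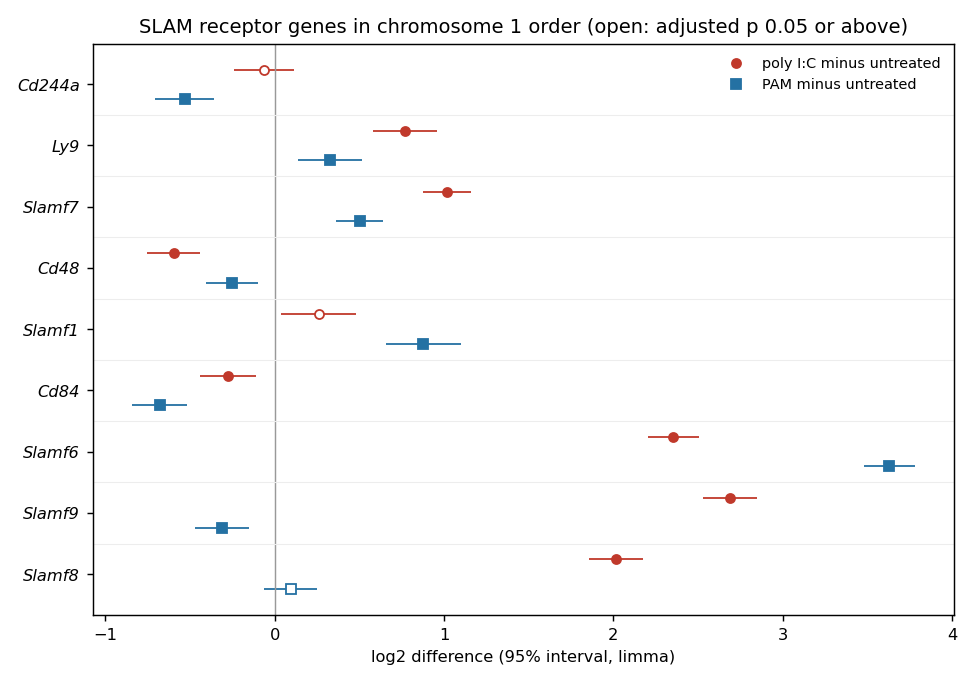
Log2 differences of 9 SLAM receptor genes in their order along mouse chromosome 1, for poly I:C minus untreated (circles) and PAM minus untreated (squares), with 95% intervals from limma. Open symbols did not pass an adjusted p of 0.05. Slamf9 and Slamf8 lie above 2 with poly I:C and at -0.31 and 0.09 with PAM, and Slamf6 is higher with PAM.

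For the 4 genes with the widest range of group means, the nearest patterns over the 6 arrays were sought among all genes by Euclidean distance after centring each gene on its mean. Those nearest to Cd86 were Gbp4 (distance 0.47) and Ms4a6b (0.47). Those nearest to Cd69 were Gbp7 (0.38) and Gm12250 (0.49), and those nearest to Cd274 were Parp14 (0.33) and Slc2a6 (0.37). Icosl was nearest to Slc1a2 (0.19) and Irak3 (0.21).

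Because Cd69, Slamf1, Cd80 and Cd86 are also genes of lymphocytes and dendritic cells, markers of other peritoneal cells were read beside them. Over all genes, 12.1% were called higher and 18.2% lower with poly I:C, and 11% and 14% with PAM. These shares are for the adjusted p, and none was taken for the unadjusted counts below. Of 7 T and NK cell markers 0 were called with either ligand by limma, with 1 higher with poly I:C and 0 with PAM at an unadjusted p under 0.05, and their mean centred value lay between 0.05 and 0.09 on poly I:C arrays, -0.02 and 0.01 on PAM arrays, and -0.08 and -0.0089 on untreated arrays. Of 7 B cell markers 2 rose and 1 fell with poly I:C and 3 rose and 1 fell with PAM, with means of 0.02 to 0.05, -0.04 to 0.15 and -0.09 to 0.0091 on poly I:C, PAM and untreated arrays. Of 7 dendritic cell markers 1 rose and 1 fell with each ligand, the means lying between -0.11 and -0.06 on poly I:C arrays, -0.08 and 0.03 on PAM arrays, and -0.08 and 0.12 on untreated arrays. Of 5 neutrophil markers 1 rose and 1 fell with poly I:C and 2 rose and 1 fell with PAM, and the means ran from -0.08 to -0.01 on poly I:C arrays, 0.91 to 0.96 on PAM arrays, and -0.06 to -0.04 on untreated arrays. The neutrophil mean on PAM arrays rested on Mmp9 (values of 2.72 and 2.98) and S100a8 (2.08 and 1.99), named after their values were seen. On those arrays Cxcr2, Ly6g and S100a9 lay between -0.14 and 0.01. Of 4 mast cell markers 0 were called by limma, with 1 lower at an unadjusted p under 0.05 with each ligand, and the means lay between -0.04 and 0.07 on poly I:C arrays, -0.07 and -0.0033 on PAM arrays, and -0.04 and 0.08 on untreated arrays. Of the 8 macrophage markers 2 rose and 3 fell with poly I:C and 3 rose and 3 fell with PAM. Their means were -0.08 to -0.06 on poly I:C arrays, 0.20 on both PAM arrays, and 0.03 to 0.09 on untreated arrays. These means average opposite moves of single markers, named after their values were seen. Fcgr1 differed by 2.65 with poly I:C and -1.72 with PAM, and Cd14 by -1.28 and 2.39, while Lyz2 and Cd68 were not called with either ligand. Of the 30 markers of other cells 3 lay at a log2 level of 8 or above on all arrays, and the part of such cells in the changes of Icosl, Slamf1 or the other genes of the set was not tested.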

How the data were processed

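Biotinylated cRNA was made from total RNA by the Affymetrix procedure, per the labels' protocols. The authors deposited log2 values (the base is taken as 2) for 28815 probes on 6 arrays, with each probe's median over the arrays subtracted. How probes were summarized and normalized is not given in the sources used here. Of the probes, 21780 had 1 gene symbol, 1605 several and 5430 none in the platform annotation. Single-symbol probes were averaged per gene. One mean per group was fitted over all 6 arrays with lmFit and eBayes without a variance trend (limma 3.58.1, R 4.3.3; 3 residual and 5.68 prior degrees of freedom), tested on simulated data. Figures and promoter searches used Python 3.11.15. Before centring, a probe was taken to lie at a log2 level of 8 or above on all arrays where every readable value was a whole multiple of the single-precision step at that level, which held for 96.6% of 204 ribosomal protein probes and 1.41% of 1133 olfactory receptor probes. The genes, relatives and marker lists were chosen with earlier results of these data known. Every gene of the set was reported; of relatives, up to 2 per list, comparison and direction, the largest called changes. Replicates had no stated origin, and the same replicate number in different groups was not used as a pair. Alternatives were array centring, quantile normalization of the centred values, variance trend, robust fit, only the arrays compared and a replicate block. Further ones were leaving out each array, single probes, bright genes and a fold minimum of 1.5.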

Additional observations from a re-analysis of the deposited data

How the results depend on the processing

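Over 15 alternatives, 390 values of the 9 genes were recomputed: 364 kept their side of the threshold, 14 lost a call and 12 gained one. Where either fit gave a call, 0 changed sign. Some uncalled differences did: with an array left out, Cd80 with PAM ran from -0.05 to 0.16 and Pdcd1lg2 between the ligands from -0.08 to 0.12. The alternatives are not separate checks. Variance trend, robust fit, only the arrays compared, replicate block and fold minimum leave each difference unchanged. Leaving out an array of the group not compared repeats the fit to only the arrays compared. Sizes moved most under quantile normalization: with poly I:C against untreated cells it gave 3.71 for Cd86 (4.74 as deposited), 3.24 for Cd69 (4.31), 2.15 for Cd274 (2.67) and 1.45 for Slamf8 (2.02). No other alternative moved the fold of a gene of the set by over 1.5 times. Changed calls concerned Cd80, Pdcd1lg2 and Slamf1, and, where a fold of at least 1.5 was required, also Icosl with poly I:C (0.55), Cd86 with PAM (0.41) and Slamf7 with PAM (0.50) and between the ligands (0.52). With that minimum 2261 genes were called with poly I:C, 1839 with PAM and 2210 between the ligands, against 6059, 4983 and 5725 without it, and 5 genes of the set were called with poly I:C, 4 with PAM and 6 between the ligands. Restricting the fit to genes at 8 or above on all arrays left 3 genes of the set. Of these, 3 were called with poly I:C, 2 with PAM and 3 between the ligands. In that fit 3967 of the 5981 genes tested were called with poly I:C, a larger share than the 6059 of 19935 in the main fit. Totals of that fit for the other comparisons are not given here. Leaving out an array gave 6 to 8 called genes of the set with poly I:C, 6 to 7 with PAM and 7 to 8 between the ligands, and 4452 to 6588, 3503 to 5190 and 4364 to 6296 genes in all. Pdcd1lg2 with PAM was called with arrays centred (adjusted p = 0.0478, limma), quantile normalization (0.0339), only the arrays compared (0.0437), the replicate block (0.0278), and without untreated replicate 1 (0.0402) or either poly I:C array (0.0437). With only the arrays compared, the Pdcd1lg2 call with poly I:C ended (0.0523) and Cd80 was called between the ligands (0.0195), as it was without either untreated array. The replicate block gave 8, 7 and 7 called genes of the set and 6026, 4918 and 5698 in all. Deviations of same-numbered arrays correlated at -0.01 for poly I:C and PAM, -0.07 for poly I:C and untreated, and 0.15 for PAM and untreated, over genes. Signal over background is unknown for the dimmer probes.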
